A study of Mus musculus with 16 samples.

Results

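The 36 aminoacyl-tRNA synthetase genes, 20 cytosolic and 16 mitochondrial, were taken by symbol from the 39057 gene rows of the count table, and all 36 were found and passed the filter on low counts. The classes followed the compartment in which each enzyme is known to work, with a 2 at the end of the symbol for the mitochondrial enzymes. Gars and Kars are known to encode both the cytosolic and the mitochondrial enzyme. They were counted as cytosolic, and gene counts do not separate the forms, so the cytosolic sum and the ratio of the sums include both. Primary cortical brain endothelial cells had been cultured from *APOE3*- and *APOE4*-targeted replacement mice, which carry human *APOE* driven by the mouse *Apoe* promoter. Mice were 21 to 28 days old, and each of the 8 cultures per genotype (4 of males, 4 of females) held the cells of a single animal. All cultures went through puromycin selection at 8 µg/ml, were grown to confluence and received no further treatment. The question was whether the transcripts of the enzymes that load tRNAs differ between *APOE4* and *APOE3* cells, and whether the cytosolic and mitochondrial sets do so alike.

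Aminoacyl-tRNA synthetases join each amino acid to its tRNA, the step that fixes the genetic code before the ribosome reads it. The cytosolic set serves the translation of nearly all proteins, and several of its enzymes sit together in a multisynthetase complex held by the scaffold proteins Aimp1, Aimp2 and Eef1e1. The mitochondrial enzymes are encoded in the nucleus, are imported, and serve only the few proteins made from mitochondrial DNA. Brain endothelium is rich in amino acid transporters. Cytosolic synthetase genes are known in general among the targets of the ATF4 amino acid response, and whether they are in these cells was not tested.

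Human APOE reads were present in every library, at 15504 to 22318 counts in *APOE3* and 7672 to 14722 in *APOE4* libraries, while the mouse Apoe row held 128 to 290. Human APOE was at 1172 ± 174 and 796 ± 134 CPM, a log2 fold change of -0.56 (adjusted p = 0.00542, edgeR). The label of the cells was checked with 15 brain endothelial markers, whose summed level was 15528 to 16662 CPM (read counts scaled to library size, with TMM factors) in *APOE3* and 15267 to 16832 in *APOE4* libraries. Their levels differed widely, from 3408 to 3805 CPM for Pecam1 and 3088 to 3630 for Cdh5 to 2.43 to 4.92 for Mfsd2a. Of 11 pericyte and smooth muscle markers, 8 were tested and 0 called, with sums of 188.6 to 356.1 and 223.6 to 340.8 CPM, and Rgs5, Kcnj8 and Abcc9 did not pass the filter, at no more than 14 counts. Fibroblast markers summed to 13.3 to 65.3 and 10.4 to 85.2 CPM, astrocyte markers to 31.9 to 41.7 and 33.4 to 43.4, neuron markers to 9.51 to 12.9 and 11.2 to 15.1, oligodendrocyte markers to 0.670 to 1.97 and 0.504 to 1.65, and microglia markers to at most 0.792. Most of the astrocyte sum was Gja1, at 30.0 to 40.2 CPM over all libraries. Tagln, at 114 to 223 CPM, and Acta2, at 65.5 to 112, made up most of the pericyte and smooth muscle sum. Gfap and Aqp4, which define astrocytes, reached 6 and 2 counts, and no gene of these marker lists was called between genotypes (edgeR's quasi-likelihood test, adjusted p under 0.05). At an unadjusted p under 0.05 there were 4 of 15 endothelial, 1 of 8 pericyte, 1 of 4 fibroblast, 2 of 2 astrocyte, 2 of 2 neuron and 1 of 1 oligodendrocyte markers tested, against 29% of all genes tested. The part of these markers in the results was not tested. The largest log2 fold changes of the endothelial, pericyte, fibroblast, astrocyte and neuron lists were -0.15 for Tek, 0.56 for Myh11, 1.06 for Col3a1, 0.65 for Aldh1l1 and 0.64 for Rbfox3, at adjusted p from 0.0597 to 0.149 (edgeR).

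Cytosolic synthetases were expressed at a higher level per length than mitochondrial ones. On the scale of TPM (counts per kilobase of merged exons, scaled to the same total in every library), the median cytosolic member had a mean of 66.0 over the 16 libraries and the median mitochondrial member 13.6, against 24.9 for all genes tested. Gars (glycine) was the highest, at 206 ± 13.3 TPM (SD, n = 16), followed by Vars (valine) at 200 ± 7.80 and Wars (tryptophan) at 138 ± 5.91. Gars exceeded Vars in 11 of 16 libraries, so these neighbours were not ordered in every library, whereas Vars exceeded Wars and Wars exceeded Rars in all 16. The lowest cytosolic members were Farsa, a subunit of the phenylalanine enzyme, at 31.0 ± 2.66, Eprs, the fused glutamate and proline enzyme, at 29.7 ± 1.81, and Yars (tyrosine) at 29.2 ± 3.87. These did not differ in order beyond their spread, since Farsa exceeded Eprs in 9 of 16 libraries and Eprs exceeded Yars in 9. The place of Eprs rests on the length used: its merged exons are 18.1 kb against 5638 bases for its longest transcript, and with the longest transcript as the length it stood at 72.3 TPM. The place of Wars also rests on it, since by the longest transcript Kars (144 TPM) and Rars (128) stood above Wars (125).

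Among mitochondrial members Tars2 (threonine) led at 45.7 ± 3.16 TPM and exceeded Iars2 (isoleucine, 36.1 ± 3.16) in all 16 libraries, as Iars2 did the next, Vars2 (valine, 19.8 ± 1.61). By the longest transcript Lars2, at 39.8 TPM, stood above Vars2, at 18.5. At the bottom were Mars2 (methionine) at 4.48 ± 0.609, Ears2 (glutamate) at 3.04 ± 0.723 and Nars2 (asparagine) at 2.99 ± 0.480. Mars2 exceeded Ears2 in all 16 libraries, and Ears2 exceeded Nars2 in 8 of 16. Of the neighbouring pairs in the order of levels, 6 of 19 cytosolic and 6 of 15 mitochondrial pairs were ordered the same way in every library. The reads behind these levels were 399 to 4993 counts per library for cytosolic and 29 to 1447 for mitochondrial members. Values in CPM varied over the libraries by a median coefficient of variation of 7.09% for cytosolic members (3.53% for Vars to 12.4% for Yars) and 12.4% for mitochondrial ones (6.08% for Tars2 to 22.9% for Pars2), against 9.91% for all genes tested. Pars2, with 39 to 89 counts, and Ears2, with 29 to 80, were the most variable members and had the fewest reads.

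**Figure D1:**
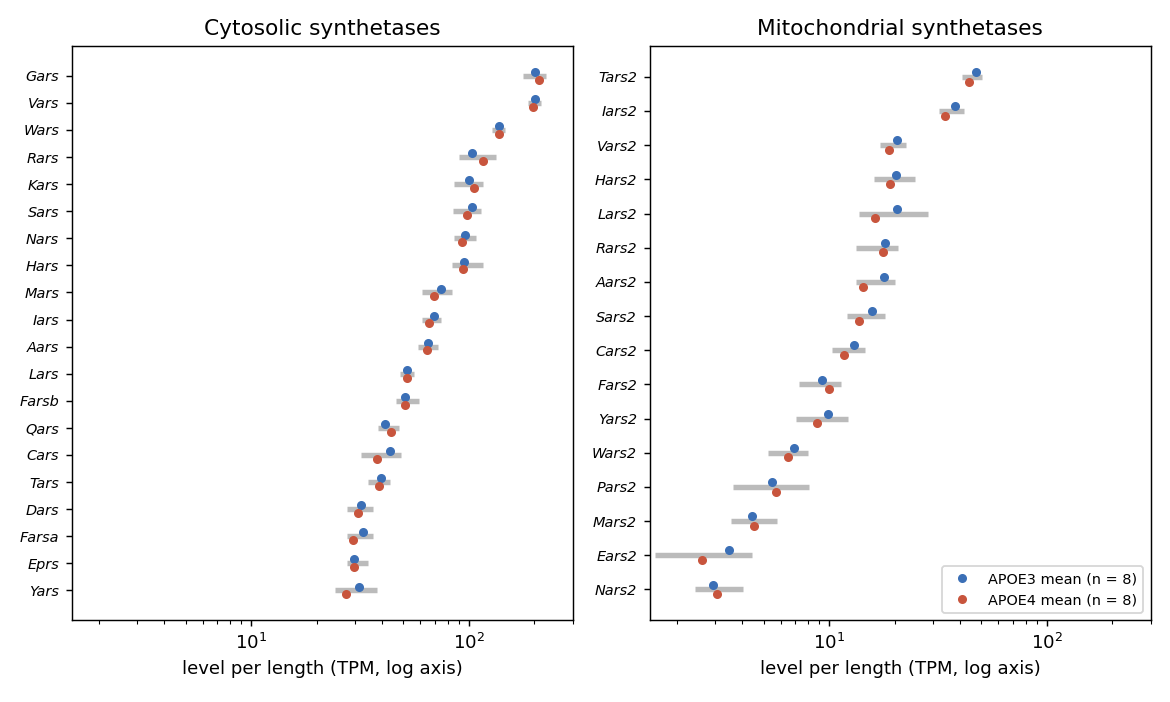
Level per length (TPM, log axis) of the 20 cytosolic and 16 mitochondrial synthetases, with the range over 16 libraries as a grey bar and the mean of the 8 libraries of each genotype as a point. Cytosolic means run from 29.2 for Yars to 206 for Gars and mitochondrial means from 2.99 for Nars2 to 45.7 for Tars2.

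Most amino acids have an enzyme in each compartment, and the balance between them differed widely by amino acid. The ratio of cytosolic to mitochondrial TPM was lowest for threonine, where Tars was at 0.862 of Tars2 (0.746 to 1.06 over the 16 libraries), so this was the only pair measured with the mitochondrial transcript at the higher mean. Iars over Iars2 was 1.88 (1.58 to 2.28) and Lars over Lars2 2.93 (1.81 to 3.71). At the other end, Mars over Mars2 was 16.3 (12.8 to 20.6), Wars over Wars2 20.9 (16.3 to 25.3) and Nars over Nars2 32.3 (25.0 to 42.2). Eprs serves glutamate and proline, and stood at 10.4 times Ears2 and 5.55 times Pars2, or at 31.7 and 17.6 times them by the length of the longest transcript. By that length Lars over Lars2 was 1.39, and Tars over Tars2 was 0.648. Iars2 shares 22.9% of its exon length with Rab3gap2 on the opposite strand, and since the strand setting of the counting is not given, reads of that stretch cannot be told apart.

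Summed over the class, the mitochondrial transcripts had a lower mean level in *APOE4* than in *APOE3* cells, while the cytosolic means lay within 1 SD of each other. The 20 cytosolic members summed to 1603 ± 76.1 TPM in *APOE3* and 1595 ± 46.2 in *APOE4* cultures (SD, n = 8 each). The 16 mitochondrial members summed to 234 to 265 TPM (median 257, mean 254 ± 9.64) in *APOE3* and 218 to 249 (median 232, mean 231 ± 10.7) in *APOE4* cultures. The ranges overlapped, with *APOE3* replicates 6 and 7, at 234 and 248, inside the range of *APOE4*. Without Lars2 the sums were 234 ± 9.15 and 215 ± 10.1. A sum weighs the members with the highest levels most. The median log2 CPM of the 16 members in each library did not show the fall, at 3.72 ± 0.0594 in *APOE3* and 3.74 ± 0.135 in *APOE4* libraries. The ratio of the cytosolic to the mitochondrial sum was 6.31 ± 0.345 in *APOE3* and 6.91 ± 0.340 in *APOE4* libraries, 6.61 over all 16. These sums are descriptions and carry no test, since the members were chosen as a set. In bulk cultures, fewer cells with a transcript and less of it per cell cannot be told apart.

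**Figure D2:**
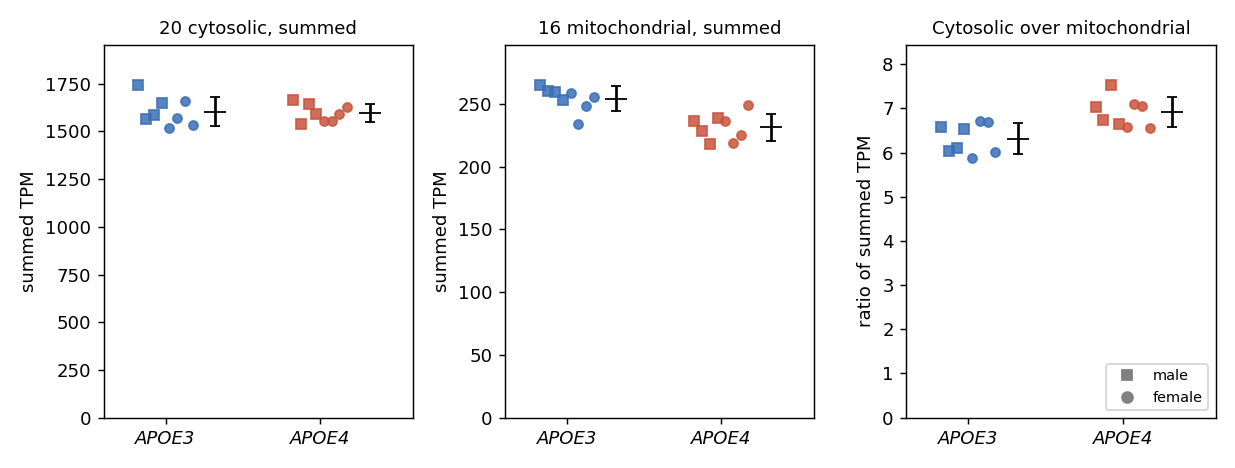
Summed TPM of the 20 cytosolic members, of the 16 mitochondrial members, and the ratio of the sums, each point a library (squares male, circles female) with mean and SD of 8 libraries per genotype as bars, on axes from 0. The mitochondrial sum is 254 ± 9.64 in *APOE3* and 231 ± 10.7 in *APOE4* libraries, and the cytosolic sums overlap throughout.

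By gene, 4 of the 36 members were called between genotypes by edgeR's quasi-likelihood test with Benjamini-Hochberg adjustment, which is 11.1% of the members against 12.8% of all 12481 genes tested. The share of members called was thus no larger than that of genes in general. Rars was called higher with *APOE4* (1 of 36, background 6.71% of genes called higher), and Cars, Aars2 and Lars2 lower (3 of 36, background 6.09%). At an unadjusted p under 0.05 there were 11 members, against a background of 29% of genes. No member had *APOE3* and *APOE4* libraries without overlap, which 0.625% of genes had. All 36 log2 fold changes lay between -0.39 and 0.19, while those of all genes tested ran from -1.37 to 1.56.

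The cytosolic and mitochondrial members differed in how their fold changes were spread around 0. Of the cytosolic members 9 lay above and 11 below 0, with a median log2 fold change of -0.0059, and 1 was called in each direction. Of the mitochondrial members 12 of 16 lay below 0, against a background of 50.1% of genes, with a median of -0.094, and 2 were called, both lower. The median of all genes tested was -0.00022. The difference between the classes was not tested.

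**Figure D3:**
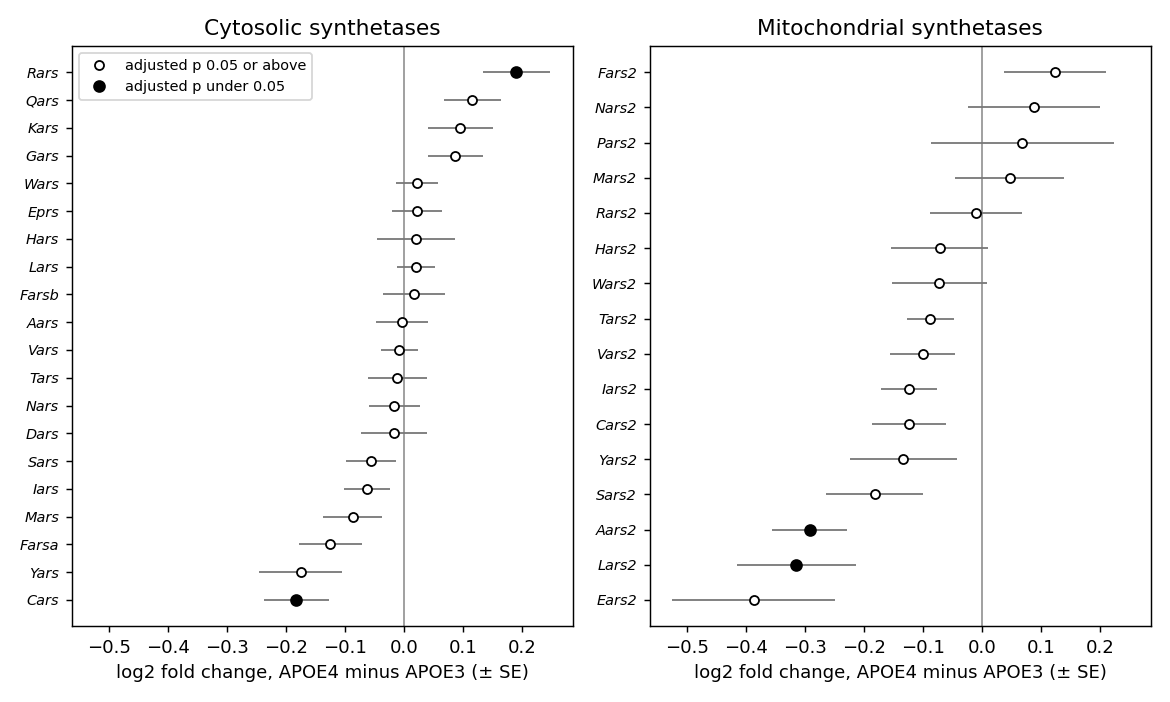
Log2 fold change of *APOE4* minus *APOE3* with its SE for each member, cytosolic on the left and mitochondrial on the right, ordered by size, with called members (adjusted p under 0.05) as filled points. Rars lies at 0.19 and Cars at -0.18 among cytosolic members, and Aars2 at -0.29 and Lars2 at -0.32 among mitochondrial members, most of which lie to the left of 0.

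Within the cytosolic set, members of the multisynthetase complex and those outside it were looked at apart. The complex holds Dars, Eprs, Iars, Kars, Lars, Mars, Qars and Rars, of which 5 of 8 lay above 0 with a median of 0.021, and Rars was the only call. Rars, on chromosome 11 from 35808381 to 35834506 (coordinates here and for the members that follow are of mm10, which is GRCm38), loads arginine. Its level was 68.1 to 90.1 CPM (median 79.4) in *APOE3* and 80.8 to 106 (median 87.7) in *APOE4* libraries. The *APOE3* median was exceeded in 8 of 8 *APOE4* libraries, and the groups overlapped between 80.8 and 90.1 CPM. The means were 78.8 ± 6.74 and 90.0 ± 8.11 CPM (SD, n = 8 each), with a log2 fold change of 0.19, its SE being 0.0566 and its adjusted p 0.0324 (edgeR). Leaving out 1 library at a time kept the call in 10 of 16 fits, with log2 fold changes from 0.16 to 0.22 and adjusted p up to 0.0745. It was lost without *APOE3* replicate 2, 4, 5 or 8 and without *APOE4* replicate 1 or 7.

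Qars (glutamine) and Kars (lysine), also of the complex, had log2 fold changes of 0.12 (adjusted p = 0.117) and 0.095 (adjusted p = 0.265, edgeR), and 7 of 8 *APOE4* libraries of each lay above the *APOE3* median. Eprs, the fused enzyme, was at 127 ± 9.03 and 128 ± 6.35 CPM, a log2 fold change of 0.022 whose interval of 2 SE ran from -0.063 to 0.11. Mars and Iars lay on the other side, at -0.087 and -0.063, and were not called. The scaffold genes Aimp1 and Aimp2 had log2 fold changes of 0.083 and 0.085, Eef1e1 of -0.037, and 0 of these 3 were called (unadjusted p under 0.05 in 0).

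Of the 12 cytosolic members outside the complex, 8 lay below 0, the median was -0.0098, and Cars was the only call. Cars (chromosome 7 from 143557230 to 143600090) loads cysteine, and 3.2% of its exon length overlaps the pseudogene Gm15580. It stood at 61.8 to 75.4 CPM (median 67.4) in *APOE3* and 50.4 to 68.8 (median 58.0) in *APOE4* libraries. In *APOE4* 7 of 8 libraries lay below the *APOE3* median, with replicate 1 the exception. The means were 67.6 ± 4.99 and 59.6 ± 5.52 CPM, with a log2 fold change of -0.18, its SE being 0.0556 and its adjusted p 0.0359 (edgeR). The call held in 8 of 16 fits without 1 library (log2 fold change -0.21 to -0.15, adjusted p up to 0.0745) and was lost without *APOE3* replicate 1, 4, 5 or 7 and *APOE4* replicate 2, 5, 6 or 7.

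None of the 3 highest cytosolic members was called. Gars was at 148 ± 13.3 and 157 ± 5.08 CPM (log2 fold change 0.087, adjusted p = 0.218, edgeR), and the *APOE3* median of 152 was exceeded in 8 of 8 *APOE4* libraries. Vars was at 266 ± 12.0 and 265 ± 6.57 CPM, a log2 fold change of -0.0084 with an interval of 2 SE from -0.071 to 0.054, and Wars, at 0.022, had one from -0.049 to 0.094. Yars was at 43.6 ± 5.52 and 38.7 ± 3.40 CPM (-0.18, adjusted p = 0.103), and Farsa at 34.8 ± 3.12 and 31.9 ± 1.67 (-0.13, adjusted p = 0.123, edgeR). In Yars and Farsa 7 of 8 *APOE4* libraries lay below the *APOE3* median. Farsb, the other subunit of the phenylalanine enzyme, had a log2 fold change of 0.017.

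Aars2 had the lowest adjusted p of the members. It encodes the mitochondrial alanine enzyme and lies on chromosome 17 from 45506841 to 45520843, with no stretch of 50 bases shared with transcripts of other genes. Its level was 17.7 to 22.5 CPM (median 20.1) in *APOE3* and 15.0 to 19.0 (median 15.98) in *APOE4* libraries. All 8 *APOE4* libraries lay below the *APOE3* median, and *APOE4* replicate 8, at 19.0, was the only one to exceed the lowest *APOE3* library, at 17.7. The means were 20.0 ± 1.84 and 16.4 ± 1.24 CPM, with a log2 fold change of -0.29, its SE being 0.0637 and its adjusted p 0.00872 (edgeR). The call held in all 16 fits without 1 library, with log2 fold changes from -0.33 to -0.27 and adjusted p of at most 0.0225. It was -0.36 within males and -0.22 within females.

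Lars2, the mitochondrial leucine enzyme on chromosome 9 from 123366927 to 123462666, was called lower, and its level moved across libraries with that of Gm42418, an RNA that is no synthetase. It stood at 43.0 to 73.6 CPM (median 53.7) in *APOE3* and 36.2 to 55.8 (median 42.4) in *APOE4* libraries. The highest library of each genotype was *APOE3* replicate 1 at 73.6 and *APOE4* replicate 5 at 55.8, and the groups overlapped from 43.0 to 55.8 CPM. The means were 53.7 ± 9.94 and 43.1 ± 6.22 CPM, with a log2 fold change of -0.32, its SE being 0.100 and its adjusted p 0.0439 (edgeR). The call held in 6 of 16 fits without 1 library, those without *APOE3* replicate 2, 6, 7 or 8 or *APOE4* replicate 5 or 8, with log2 fold changes from -0.38 to -0.24 and adjusted p up to 0.0817 over all 16.

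Gm42418 was chosen after its values were seen. RefSeq lists it under Rn18s-rs5, a sequence related to 18S ribosomal RNA, which poly-A selection is meant to leave behind. Gm42418 was at 229 to 700 CPM (median 381) in *APOE3* and 194 to 357 (median 248) in *APOE4* libraries, with a log2 fold change of -0.63, its SE being 0.183 and its adjusted p 0.0300 (edgeR). Its highest libraries were the same as those of Lars2, *APOE3* replicate 1 at 700 and, within *APOE4*, replicate 5 at 357. Over the 16 libraries, centred on genotype, Lars2 and Gm42418 had r = 0.90 (permutation p = 6e-05, adjusted over 12480 genes 0.437) and rho = 0.81 (permutation p = 0.00076, adjusted p = 1). Without the 2 libraries farthest from the median of Gm42418, *APOE3* replicates 1 and 8, r was 0.84, and it was 0.97 within *APOE3* and 0.78 within *APOE4*. No other gene of the 12480 had an r as high, no gene passed an adjusted p under 0.05 (background 0%), and 2.24% of genes had an unadjusted p under 0.05 with r above 0. Among the other 35 members r ran from -0.48 to 0.71 with a median of 0.12, the highest being Gars. With the level of Gm42418 as a covariate, an alternative chosen after seeing the data, the log2 fold change of Lars2 was -0.033 (adjusted p = 0.771, edgeR), that of Aars2 -0.34 (adjusted p = 0.0136), that of Rars 0.25 (adjusted p = 0.0240) and that of Cars -0.15 (adjusted p = 0.175), while Gars was called higher (0.18, adjusted p = 0.0220). Gm42418 itself differed by genotype in these same libraries, so this fit cannot separate its level from genotype. The annotated transcripts of Lars2 share 0.196% of their stretches of 50 bases with annotated transcripts of other genes. Sequences outside that annotation were not compared, so this share cannot show whether reads of ribosomal RNA were counted to Lars2.

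**Figure D4:**
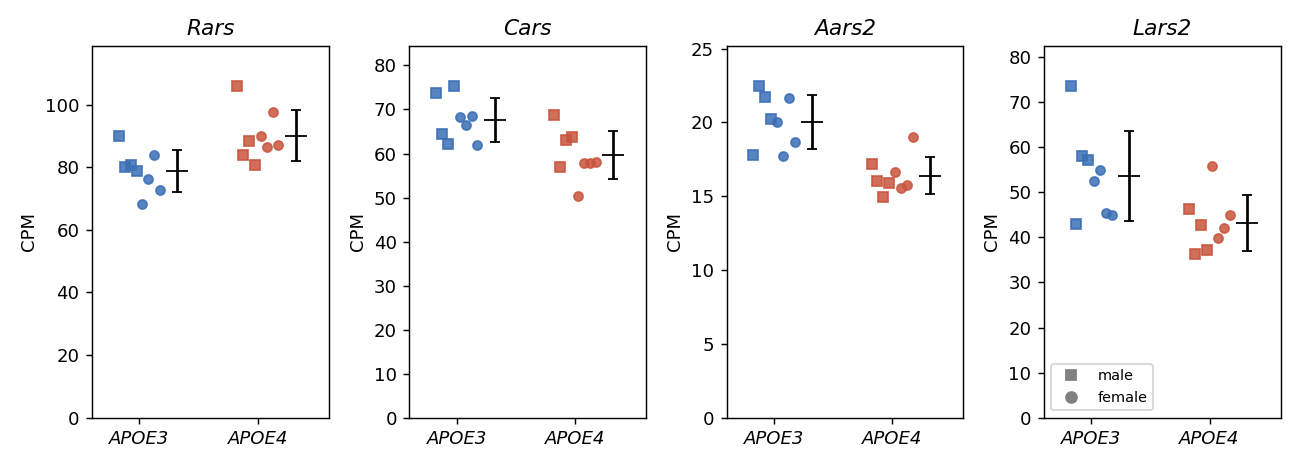
Level in CPM, on axes from 0, of the 4 called members in each library (squares male, circles female), with mean and SD of the 8 libraries per genotype. Rars is higher with *APOE4* and Cars, Aars2 and Lars2 are lower, the groups overlap in each panel, and the highest Lars2 value, 73.6, is *APOE3* replicate 1.

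No other mitochondrial member was called. Ears2, which loads glutamate, had the lowest log2 fold change of all members, -0.39 (SE 0.138, adjusted p = 0.0669, edgeR). Its level was 3.52 to 5.29 CPM (median 3.91) in *APOE3* and 1.96 to 3.97 (median 3.27) in *APOE4* libraries, from 29 to 80 counts, and 7 of 8 *APOE4* libraries lay below the *APOE3* median. It passed the threshold with DESeq2's Wald test (adjusted p = 0.0464) and without *APOE3* replicate 6 or *APOE4* replicate 8.

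Tars2 and Iars2, the members with the highest level, were at 77.3 ± 4.59 and 72.8 ± 3.48 CPM (log2 fold change -0.087, adjusted p = 0.151) and at 79.2 ± 6.42 and 72.8 ± 4.20 CPM (-0.12, adjusted p = 0.0926, edgeR). Neither was called, and all 8 *APOE4* libraries of Tars2 lay below the *APOE3* median. Tars2 passed without *APOE3* replicate 6, its lowest *APOE3* library. Sars2 (serine, -0.18), Yars2 (tyrosine, -0.13), Cars2 (cysteine, -0.12) and Vars2 (valine, -0.10) each had 7 of 8 *APOE4* libraries below the *APOE3* median without being called, at adjusted p from 0.147 to 0.352 (edgeR). Vars2 shares 8.52% of its exon length with the antisense gene Gm20483, and Cars2 5.83% with Naxd on the opposite strand.

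Above 0 lay 4 mitochondrial members, of which Fars2 (phenylalanine) had the highest value, 0.12 (adjusted p = 0.359, edgeR), with 12.6 ± 1.32 and 13.7 ± 1.79 CPM and an interval of 2 SE from -0.048 to 0.30. It shares 8.72% of its exon length with Nrn1 on the opposite strand. Nars2, at 0.089, Pars2, at 0.069, and Mars2, at 0.047, followed. Mars2 was at 11.8 ± 1.64 and 12.2 ± 1.63 CPM and Nars2 at 4.79 ± 0.838 and 5.09 ± 0.687. The intervals of 2 SE of Nars2, -0.14 to 0.31, and Mars2, -0.14 to 0.23, were wider than those of Vars and Wars, and these members had 53 to 104 and 141 to 234 counts per library.

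The genotype effect could be followed in each sex with 4 libraries a group. Within males 0 of 36 members were called and within females 0, by edgeR's quasi-likelihood test, where 0 of all genes were called either (background 0%). At an unadjusted p under 0.05 there were 3 members in males, all mitochondrial, against 14.2% of genes, and 7 in females, 4 cytosolic and 3 mitochondrial, against 19.5%. Of the 16 mitochondrial members 15 lay below 0 in males (median -0.11) and 11 in females (median -0.100). Of the 20 cytosolic members 13 lay below 0 in males (median -0.015) and 8 in females (median 0.0043). The difference between the sexes in the genotype effect was called for 0 members and 0 genes, and 0 members had an unadjusted p under 0.05, against 2.76% of genes. Lars2 had -0.51 in males and -0.11 in females, a difference of 0.40 (adjusted p = 1.00), and males held *APOE3* replicate 1.

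Between the sexes themselves, 0 members were called by edgeR with genotype in the fit, against 0.0721% of genes. At an unadjusted p under 0.05 there were 3 members, Cars, Eprs and Aars, against 4.41% of genes, with log2 fold changes of female minus male of -0.11, -0.083 and -0.086. Of the cytosolic members 18 of 20 had values below 0 (median -0.056) and of the mitochondrial 10 of 16 (median -0.0076), against 6198 of all 12481 genes (median 0.00038). Replicate 1, a male, held the highest value of 13 of the 20 cytosolic members in *APOE3* and of 11 in *APOE4*. The part of these libraries in the values was not tested.

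Genes around the synthetases were described by the same counts, against a background of 12.8% of all genes called and 29% at an unadjusted p under 0.05. Of 13 genes of tRNA maturation and export, 1 was called: Tsen34, a subunit of the tRNA splicing endonuclease, rose from 53.7 ± 4.26 to 63.5 ± 5.54 CPM (log2 fold change 0.24, adjusted p = 0.0111, edgeR), with the *APOE3* median exceeded in 8 of 8 *APOE4* libraries. Of the 4 genes of elongation factor 1, which carries loaded tRNAs to the ribosome, 0 were called, and Eef1a1 was closest at 0.089 (adjusted p = 0.0529), also the only one at an unadjusted p under 0.05. Of 13 mitochondrial translation factors and subunits of the glutamine amidotransferase 0 were called, with a median of -0.0027, and the largest value was that of Mtif2 at 0.17 (adjusted p = 0.130), the only one at an unadjusted p under 0.05. Of 5 proofreading genes 0 were called, and the largest value was that of Dtd1, 0.13 (adjusted p = 0.305, edgeR), with 0 at an unadjusted p under 0.05.

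Sensing of uncharged tRNA runs through the kinase Eif2ak4 (Gcn2) to eIF2 and ATF4, on which other eIF2 kinases also act. Of 7 tested kinases, phosphatase subunits and partners of eIF2, 1 was called higher and 1 lower (background 6.71% and 6.09% of genes). Eif2ak2, a kinase that responds to double-stranded RNA, rose (28.8 ± 2.55 to 34.4 ± 2.96 CPM, 0.26, adjusted p = 0.0122), and Ppp1r15a, which directs dephosphorylation of eIF2, fell (56.4 ± 2.83 to 51.3 ± 2.44 CPM, -0.14, adjusted p = 0.0270, edgeR). Eif2ak4 itself was at 69.2 ± 2.52 and 63.2 ± 6.22 CPM (-0.13, adjusted p = 0.0946). Of the 12 genes of the ATF4 program 0 were called higher and 3 lower (background 6.09% of genes called lower), with a median of -0.16 and 9 below 0. Atf4 fell from 224 ± 15.9 to 197 ± 10.2 CPM (-0.18, adjusted p = 0.0120), Ddit4, an inhibitor of mTORC1, from 105 ± 17.8 to 82.6 ± 8.59 (-0.35, adjusted p = 0.0148), and Trib3, a pseudokinase, from 47.3 ± 5.79 to 40.4 ± 3.81 (-0.23, adjusted p = 0.0413, edgeR). All 8 *APOE4* libraries of each lay below the *APOE3* median. The largest value of the list, -0.41 for Nupr1, came from 0.879 and 0.663 CPM and was not called.

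Of 11 tested genes of amino acid synthesis that respond to ATF4, 0 were called, and 2 had an unadjusted p under 0.05 (background 29% of genes), by edgeR's quasi-likelihood test. Asns, which makes asparagine, was at 38.1 ± 4.97 and 33.9 ± 3.12 CPM (-0.17, adjusted p = 0.137), and Psat1, an enzyme of serine synthesis, at 30.5 ± 5.28 and 36.2 ± 5.21 (0.25, adjusted p = 0.108). All 8 *APOE4* libraries lay below the *APOE3* median for Asns and above it for Psat1. The largest value was -0.44 for Cbs, at 1.02 and 0.766 CPM. Of 12 amino acid transporters 2 were called, both lower (background 12.8% of genes called, 6.09% lower). Slc7a5, the light chain of the large neutral amino acid transporter of brain endothelium, fell from 847 ± 179 to 608 ± 123 CPM (-0.48, adjusted p = 0.0167), and its heavy chain Slc3a2 from 452 ± 46.6 to 366 ± 43.6 (-0.30, adjusted p = 0.0111, edgeR). In both, 7 of 8 *APOE4* libraries lay below the *APOE3* median.

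Cell cycle genes also differed between the genotypes, with 29 of 32 called higher (background 6.71% of genes called higher) and a median log2 fold change of 0.63. Hmmr, which binds the spindle, had the largest change, from 19.8 ± 5.90 to 35.8 ± 8.89 CPM (log2 fold change 0.86, adjusted p = 0.00649, edgeR), and Cenpe, Nusap1, Ccna2, Plk1 and Mki67 rose by 0.67 to 0.82. The mean log2 CPM of the 32 genes per library was 5.09 to 6.12 in *APOE3* and 5.84 to 6.62 in *APOE4* libraries. With this score as a covariate 0 genes and 0 members were called by edgeR, and 899 genes and 5 members had an unadjusted p under 0.05. Then Rars had a log2 fold change of 0.031, Cars of -0.24, Aars2 of -0.28 and Lars2 of -0.42. The score was built from genes that differed by genotype in these same libraries, so this fit cannot separate the score from genotype. The part of cell cycle genes in the calls was not tested beyond this fit.

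Whether synthetases rose and fell together with the amino acid response was followed across the 16 libraries, on log2 CPM centred on the genotype mean, so that the genotype effect itself did not enter. In both genotypes replicate 1, a male, held the highest value of more cytosolic members than any other library, 13 of 20 in *APOE3* and 11 of 20 in *APOE4*. These libraries also held the highest Psat1 of their genotype, 39.3 and 44.2 CPM. With Asns as the gene compared, 15 of 20 cytosolic members had r above 0 (median 0.20) and 9 of 16 mitochondrial members (median 0.19), against a median of -0.0029 and 49.6% above 0 over 12480 genes. The highest was Iars, with r = 0.71 (permutation p = 0.00196) and rho = 0.71 (permutation p = 0.00321), and r = 0.65 without the libraries farthest from the median of Asns, *APOE3* replicates 3 and 8. Its p adjusted over all genes was 0.487, and 0 members and 0 genes (0%) were called. At an unadjusted permutation p under 0.05 with r above 0 there were 7 cytosolic and 0 mitochondrial members, against 3.93% of genes. Without *APOE3* replicates 3 and 8 the median r with Asns was 0.16 for cytosolic and 0.22 for mitochondrial members. Centred on genotype and sex, a centring chosen after seeing the data, the medians were 0.17 and 0.13. Within each genotype 10 of 20 cytosolic and 6 of 16 mitochondrial members had r above 0.

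Against Psat1 the cytosolic and mitochondrial members lay further apart. All 20 cytosolic members had r above 0, from 0.096 to 0.84 with a median of 0.58, which 5.80% of all genes reached, and 7 of 16 mitochondrial members, with a median of -0.047. Aars, the cytosolic alanine enzyme, was highest at r = 0.84 (permutation p = 0.0003, adjusted p = 0.0642) and rho = 0.85 (permutation p = 0.00032, adjusted p = 0.0906), with r = 0.76 without *APOE3* replicates 1 and 8, the libraries farthest from the median of Psat1. Aars shares 14.3% of its exon length with Exosc6 on the same strand. Kars, Nars, Tars and Eprs followed with r from 0.75 to 0.77. Over the cytosolic members the median r was 0.56 without these 2 libraries and 0.57 when values were centred on genotype and sex, a centring chosen after seeing the data, and 16 of 20 had r above 0 within each genotype. At an unadjusted permutation p under 0.05 with r above 0 there were 12 cytosolic and 0 mitochondrial members, against 9.19% of genes, and 0 members and 0 genes (0%) passed the adjusted threshold. Against Trib3, by contrast, 3 of 20 cytosolic members had r above 0 (median -0.25) and 9 of 16 mitochondrial members (median 0.15). There 10.8% of genes passed the adjusted threshold, 12.7% had an unadjusted p under 0.05 with r above 0, and of the members Wars2 alone passed for r (0.74, permutation p = 0.00291, adjusted p = 0.0349), with rho = 0.62 (permutation p = 0.0175, adjusted p = 0.119) and r = 0.49 without *APOE3* replicates 6 and 8, the farthest from the median of Trib3. Gars alone passed for rho (-0.76, permutation p = 0.00113, adjusted p = 0.0244), with r = -0.67 (permutation p = 0.00604, adjusted p = 0.0534) and r = -0.55 without these 2 libraries. Asns, Psat1 and Trib3 each respond to ATF4, and the 3 gave different orders of the members. Libraries share their depth and composition across genes, and each of the 36 members was compared with each of these 3 genes. Mitochondrial members had fewer reads than cytosolic ones, 29 to 1447 against 399 to 4993 counts per library. The part of this in the difference in r between the classes was not tested.

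**Figure D5:**
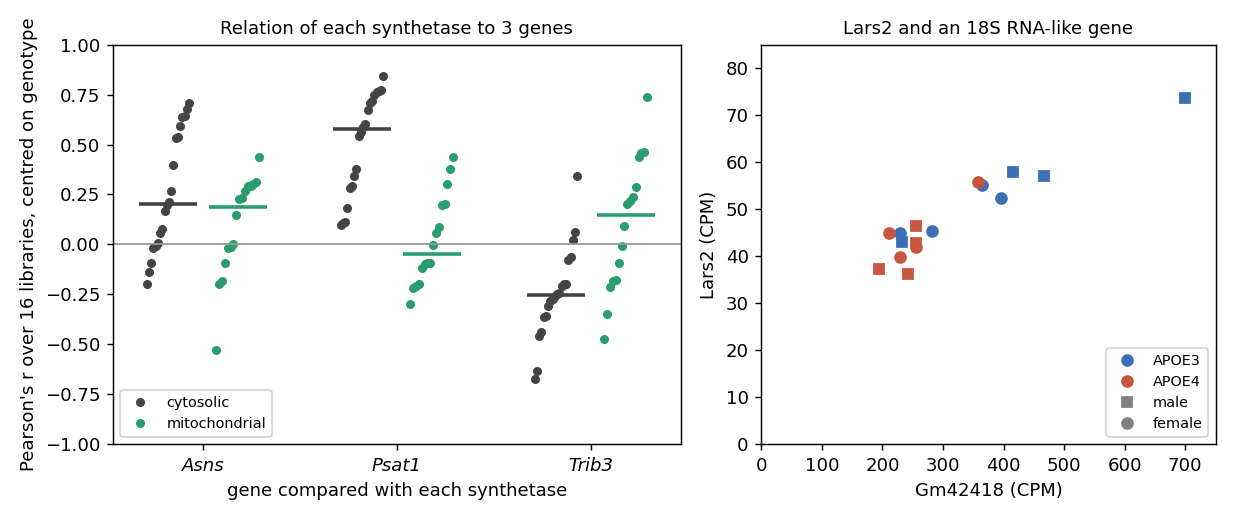
Left, Pearson's r of each synthetase with Asns, Psat1 and Trib3 over 16 libraries (log2 CPM centred on genotype), cytosolic members in dark grey and mitochondrial in green, with the class median as a bar. Right, Lars2 against Gm42418 in CPM for each library, where *APOE3* replicate 1 stands at 700 and 73.6. The cytosolic median is 0.20 for Asns, 0.58 for Psat1 and -0.25 for Trib3.

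ATF4 acts with C/EBP proteins through a short response element, and promoters of the members were searched for its letters, TGATGNAAN with N any base, on both strands. RefSeq promoters on GRCm38.p6, from 250 bases before to 50 after each start, were matched for 27 of the 36 members (13 cytosolic and 14 mitochondrial). The motif was in 5 of 13 cytosolic members (38.5%), Aars, Gars, Iars, Tars and Yars, in 0 of 14 mitochondrial members, and in 3.95% of all 32851 promoters. With a matched promoter, it was also in 3 of 11 genes of amino acid synthesis that respond to ATF4 (27.3%) and 2 of 8 amino acid transporters (25%). The share of all promoters is counted per promoter and the other shares per gene. These shares are descriptions, and a match is not shown to be a site that is used. A single match is shown for each of these 5 members, not every match, so that the letters can be compared between them, with 10 bases on either side, 5′ to 3′ on the strand that reads the motif, with the motif in capitals:
Aars, chr8:111033840-111033868: cagagcgctcTGATGAAAAgtgacccgct
Gars, chr6:55037960-55037988: gcccggtgcaTGATGAAATagcgcagcca
Iars, chr13:49682126-49682154: cgtctggaggTGATGCAATactgacagtg
Tars, chr15:11399656-11399684: gctaaccagcTGATGCAACgggactcctg
Yars, chr4:129189896-129189924: cgagctcagcTGATGCAACccgacgggac

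Of the matches shown, all but that of Yars read on the strand opposite to the gene. The Gars match began 31 bases before the start and that of Tars 16, while the matches shown for Aars, Iars and Yars lay after it, at bases 9, 7 and 4. The 250 bases before the start are shown for Gars and Tars as examples of a match in that stretch, on the strand of the gene, with the motif's reverse complement in capitals:
Gars, chr6:55037751-55038000, plus strand: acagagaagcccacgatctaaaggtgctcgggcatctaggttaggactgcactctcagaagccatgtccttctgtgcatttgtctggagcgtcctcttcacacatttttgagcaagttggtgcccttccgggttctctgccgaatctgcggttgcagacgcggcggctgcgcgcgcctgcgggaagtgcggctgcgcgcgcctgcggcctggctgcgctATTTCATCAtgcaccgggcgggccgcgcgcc
Tars, chr15:11399659-11399908, minus strand: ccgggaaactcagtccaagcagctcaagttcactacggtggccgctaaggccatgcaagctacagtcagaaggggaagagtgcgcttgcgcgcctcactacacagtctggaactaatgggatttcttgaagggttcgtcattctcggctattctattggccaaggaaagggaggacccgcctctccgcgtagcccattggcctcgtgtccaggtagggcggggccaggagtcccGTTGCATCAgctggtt

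Of these 5 members Aars, Tars and Gars had r with Psat1 of 0.84, 0.77 and 0.59, and Iars and Yars 0.60 and 0.54, while Kars and Nars, at 0.77 for each, respectively had no match in this window and no matched promoter. None of the 5 was called between genotypes. The promoters of Aars2 and Lars2 were matched and did not hold the letters, and those of Cars and Rars were not among the promoters matched.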

How the data were processed

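RNA was sequenced from 16 cultures of primary brain endothelial cells. The deposited table holds whole read counts per gene without normalization, and per the labels' processing notes the authors used STAR and featureCounts with the builds mm10 and hg38. Tool versions, the annotation release and the strand setting of the counting are not given in the sources used here, although the library kit selects strand. Total counts per library were 12717847 to 18624417. No molecular identifiers are described for these libraries, so the precision that counts give covers counting error only. Gene symbols, coordinates and exon lengths were taken from GENCODE mouse release 21, which matched 38872 of the 39056 mouse rows.

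The members and lists were chosen with earlier results of these data known. Counts were fitted with edgeR 4.0.16 in R 4.3.3 (genes kept by filterByExpr, TMM scaling, a model of genotype alone and the quasi-likelihood test). P-values of all 12481 genes tested were adjusted by Benjamini and Hochberg, with 0.05 as the threshold. "Called" means an adjusted p under that threshold. A standard error (SE) of a log2 fold change is the fold change over the root of F. Sex was tested beside genotype in 1 fit, and effects within each sex and their difference came from a fit of 4 groups. Normalised read counts (CPM) are scaled to library size with TMM factors. Levels between genes were compared per length, as counts per kilobase of merged exons scaled to the same total in every library (TPM). Relations across libraries used log2 CPM (prior count 2) centred on the genotype mean and 100000 shuffles within genotype. They had been planned with adjustment over the members and were adjusted over all genes tested instead. Alternatives were DESeq2 1.42.0 (its size factors and its Wald test), leaving low counts unfiltered, requiring 10 counts in each library, adding sex or a cell cycle score to the model, limma 3.58.1 voom with quality weights, each library left out, other anchor genes and the length of the longest transcript. The level of Gm42418 as a covariate and centring on genotype and sex were chosen after seeing the data. The fits were tested on simulated counts. Python 3.11.15, numpy 2.4.6, pandas 2.3.3, scipy 1.17.1 and matplotlib 3.10.9 made the tables and figures.

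Values are given in full for each called member (at most 12), for human APOE, for the 3 highest and 3 lowest members of each class by level per length, and for the highest and lowest log2 fold change of each class. Of the other lists, up to 6 called genes and the gene with the largest change are named. Further members are named after their values were seen, where a count or an overlap turns on them. Values of 2 further genes of the other lists and 1 further promoter match are not reported here.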

Additional observations from a re-analysis of the deposited data

Results flagged for a closer look

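Of 82 groups of 8 libraries checked for a library far from the others, 2 stood out, and chance alone marks about 1 group in 20. In *APOE4* cultures Nars2, the mitochondrial asparagine enzyme, was at 6.551 CPM in replicate 8 against 4.21 to 5.257 in the others, a gap of 0.553 of the range. Sars2, the mitochondrial serine enzyme, was at 14.29 CPM in *APOE4* replicate 4 against 9.769 to 11.16 in the others, a gap of 0.692 of the range, and without that library it was called lower with *APOE4*.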

How the results depend on the processing

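Each alternative gave the 4 called members the direction reported, but not always a call. With the cell cycle score in the model the calls were 0 cytosolic, 0 mitochondrial and 0 over all genes. Mitochondrial calls were 1 with sex as a covariate, 1 with voom quality weights and 1 with the level of Gm42418 as a covariate (chosen after seeing the data), and in these fits Lars2 was not called. Leaving out 1 library at a time gave 0 to 2 cytosolic calls, 1 to 4 mitochondrial calls, 846 to 2127 genes, 0 to 1 members within females (Rars, without *APOE4* replicate 1), and 0 for males, for sex and for the interaction. The count over all genes was lowest without *APOE4* replicate 7 (846), *APOE3* replicate 5 (853) and *APOE3* replicate 8 (952). Median log2 fold changes then ran from -0.017 to 0.011 (cytosolic) and from -0.11 to -0.080 (mitochondrial). By the longest transcript the ratio of the summed levels was 5.84. With Trib3 in place of Asns 1 member passed for r (Wars2) and another for rho (Gars). Replicate numbers were given in accession order and only name the samples. No paired analysis was possible because the labels pair no samples across genotypes. Depth limits the lowest members, with 29 to 80 counts per library for Ears2 and 39 to 89 for Pars2.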
